A study of Mus musculus with 8 samples.

Results

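Loss of the forkhead transcription factor Foxd1 was examined in the mouse hypothalamus at E17.5, shortly before birth, by total RNA sequencing. The comparison uses every library of that stage, 2 labelled wild-type and 2 labelled Foxd1-mutant, which is 4 of the 8 libraries in the study; the other 4 are single libraries of each genotype at E12.0 and E12.5. The mutant tissue came from Foxd1-null embryos, and the construction of the null allele, the strain and the sex of the embryos are not given in the sources used here. No Cre driver, transgene or further treatment is named for either genotype. RNA was pooled before library construction from a series total of 8 null and 10 control embryos, so a library is a pool and the spread between embryos cannot be seen. The wording of the extraction protocol on the genotype of the control embryos is unclear, and the groups were therefore taken from the source label of each library. Nothing states that the 2 pools of a genotype came from separate litters or dissections, so p-values measure only the spread between these libraries. For the mutant libraries that spread may be technical. The 2 wild-type pools differed in their share of male RNA, as given below, so they were not repeats of the same pool. Of the 24002 gene symbols in each table, the 13235 with a mean of at least 1 FPKM (fragments per kilobase of transcript, scaled to the mapped fragments of the library) over the 4 libraries were analysed, and 10767 fell below that level.

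Foxd1 is transcribed in the early neuroepithelium of the prospective hypothalamus and in the stromal cells of several organs, the meninges among them. The anterior hypothalamus later forms the paraventricular and supraoptic nuclei, whose large neurons release oxytocin and vasopressin into the blood from the posterior pituitary, and the suprachiasmatic nucleus, the circadian pacemaker, which also makes vasopressin. Further back lie the ventromedial, arcuate and mammillary nuclei. Each nucleus is specified by its own set of homeobox and other transcription factors before its neurons switch on their peptide genes.

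Foxd1 itself was lower in both mutant libraries. Its level was 3.90 and 1.96 FPKM in wild-type libraries 1 and 2, and 0.396 and 0.230 FPKM in mutant libraries 1 and 2. The groups did not overlap, and the wild-type libraries also differed from each other. The mean was 9.34-fold lower in the mutant, at 0.313 ± 0.118 FPKM against 2.93 ± 1.37 FPKM (SD, n = 2 each). With a log2 difference of -1.54 (standard error 0.24) it did not pass the adjusted threshold (adjusted p = 0.689, limma). Here and throughout, log2 differences are mutant minus wild-type on log2(FPKM + 1), which understates the change of genes with low values, and adjusted p-values are Benjamini-Hochberg over all 13235 genes. Foxd1 was far higher at the earlier stages, at 25.0 FPKM in the E12.0 and 30.3 FPKM in the E12.5 wild-type library against 2.77 and 2.50 FPKM in the mutant libraries of those stages. Which part of the gene the null allele lacks is not given, so the reads that remain cannot be placed inside or outside it.

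Only 1 of the 13235 genes (0.00756%) passed the adjusted threshold of 0.05, and it was the oxytocin gene. Without adjustment, 466 genes (3.52%) were lower and 289 (2.18%) higher in the mutant at p under 0.05; with small RNA genes left out and the libraries rescaled, the split was 399 lower and 400 higher. Both mutant libraries lay below both wild-type libraries for 2938 genes (22.2%) and above both for 2766 genes (20.9%), and these shares are the background for every count of non-overlapping genes given here. When a difference of at least 1.5-fold in mean FPKM + 1 was also asked for, 27 genes (0.204%) were lower and 17 (0.128%) higher. The folds given for single genes are ratios of mean FPKM with nothing added. By the sign of the log2 difference, 6481 genes (49%) were lower and 6754 (51%) higher, and the median over all genes was 0.0028. With 2 libraries against 2, an exact two-sided permutation test of a single gene cannot give a p below 0.333, so no such test is reported.

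The libraries were similar in depth, at an estimated 30.7 to 43.3 × 10⁶ fragments, and each had between 13157 and 13219 genes at 1 FPKM or more. Mutant library 2 stood apart from the other 3, with Pearson correlations of 0.987 to 0.988 across genes against 0.992 to 0.994 among the others (genes are not independent replicates). Small RNA genes made up 9.87% of its FPKM total against 13.9% to 14.7% elsewhere, and its summed level over 33 cortical excitatory neuron genes was 503 FPKM against 362 to 365 FPKM. Wild-type library 2 differed in tissues next to the hypothalamus. Its summed level was low for 19 pituitary genes, at 51.6 FPKM against 83.8 to 118 FPKM, and high for 18 skeletal muscle genes, at 65.8 FPKM against 40.2 to 45.0 FPKM. The sums of 30 meningeal and fibroblast genes were 819 and 571 FPKM in the wild-type and 883 and 567 FPKM in the mutant libraries, and those of 20 choroid plexus and ependymal genes 128, 218, 84.6 and 427 FPKM. Of 31 genes of the midbrain, hindbrain and spinal cord, 1 passed the filter on low values. The Y-linked gene Ddx3y, picked here after its values were seen, measured 0.0064 FPKM in wild-type library 1 and 8.47, 11.4 and 5.32 FPKM in wild-type library 2 and mutant libraries 1 and 2, so the pools differed in their share of male RNA. Without wild-type library 1 the log2 differences were -1.86 for Oxt (adjusted p = 0.0542, limma) and -3.22 for Avp. The part of these differences between libraries in the results below was not tested, and medians are given without mutant library 2 or wild-type library 2 for some of the lists.

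**Figure D1:**
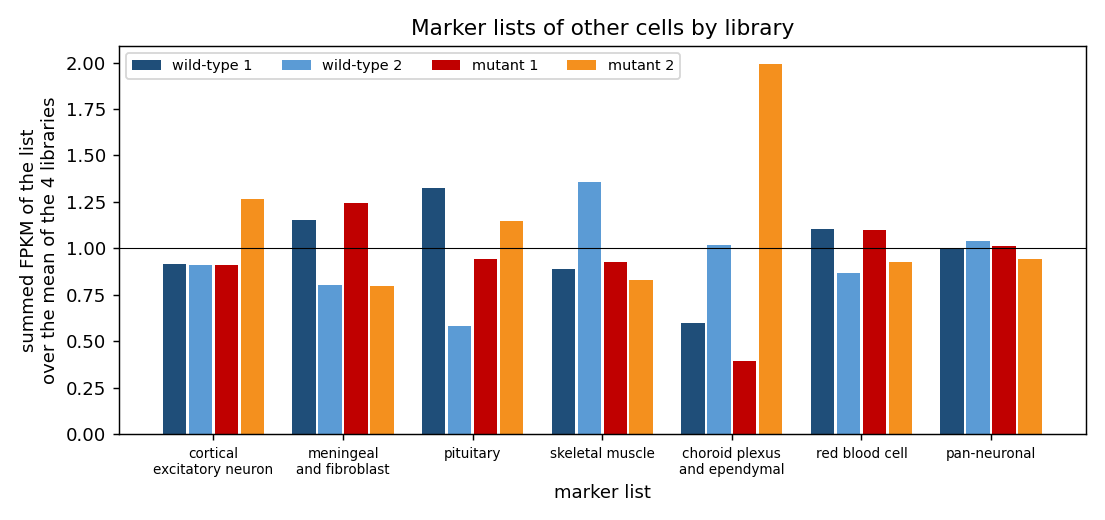
Summed FPKM of marker lists of other cells and tissues in each of the 4 E17.5 libraries, relative to the mean of the 4. Mutant library 2 was high for cortical and choroid plexus genes, and wild-type library 2 low for pituitary and high for skeletal muscle genes.

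Among the genes named here, the largest difference was that of Avp and the only one past the adjusted threshold that of Oxt, the peptide genes of the magnocellular neurons. These genes are neighbours on chromosome 2 and are transcribed towards each other; Avp encodes vasopressin, which retains water, and Oxt encodes oxytocin, which acts in birth and lactation. Oxt measured 8.10 and 7.72 FPKM in the wild-type libraries and 1.39 and 1.43 FPKM in the mutant libraries. Each pair of replicates lay close together and far from the other pair. Oxt fell by 1.89 on the log2 scale (standard error 0.07, adjusted p = 0.00716, limma), and its mean FPKM was 5.61-fold lower. Leaving out wild-type library 1 gave a log2 difference of -1.86 (adjusted p = 0.0542, limma) and leaving out wild-type library 2 gave -1.92 (adjusted p = 0.0919, limma), so the call rested on both control libraries. From the estimated depth, the levels correspond to about 95.8 and 113 fragments in the wild-type libraries and 19.0 and 14.8 in the mutant libraries, after 200 nt are taken off the transcript length.

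Avp measured 71.6 and 62.1 FPKM in the wild-type libraries against 9.38 and 3.43 FPKM in the mutant libraries. It was lower in both mutants, but they also differed from each other by more than the wild-type libraries did. Its mean FPKM was 10.4-fold lower, with a log2 difference of -3.32 (standard error 0.38), and it did not pass the threshold across all genes (adjusted p = 0.585, limma). The difference was -2.71 for mutant library 1 alone and -3.93 for mutant library 2 alone. Leaving out wild-type library 1 gave -3.22 and leaving out wild-type library 2 gave -3.42. With a library left out, Avp passed the threshold only when that was a mutant library. Such a fit has a single mutant library assumed to vary like the controls. The number of vasopressin neurons and the RNA that each contained cannot be told apart in bulk tissue, and the same holds for every cell type named here.

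The promoters of the pair are shown because both genes were lower together; the stretch runs from 250 bases before to 50 after each RefSeq start (GRCm38.p6), 5′ to 3′ on the coding strand. Capitals mark matches to the motifs searched. Oxt lies at chr2:130575919-130576218 on the plus strand and Avp at chr2:130582539-130582838 on the minus strand.
Oxt: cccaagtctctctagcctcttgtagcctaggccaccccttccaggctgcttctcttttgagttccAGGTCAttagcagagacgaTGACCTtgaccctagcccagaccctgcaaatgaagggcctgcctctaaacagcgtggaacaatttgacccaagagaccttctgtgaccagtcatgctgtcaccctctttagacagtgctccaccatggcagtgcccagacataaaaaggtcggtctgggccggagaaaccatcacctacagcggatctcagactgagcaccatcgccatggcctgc
Avp: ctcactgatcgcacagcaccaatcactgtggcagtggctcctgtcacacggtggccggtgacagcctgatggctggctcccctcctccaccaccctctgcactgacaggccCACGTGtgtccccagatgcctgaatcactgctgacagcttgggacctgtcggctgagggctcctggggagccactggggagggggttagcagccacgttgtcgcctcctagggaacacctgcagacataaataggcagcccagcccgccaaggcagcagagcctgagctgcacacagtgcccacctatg
The search covered 4 motifs on both strands, and no match overlapped another in these windows. The Oxt window holds 2 nuclear receptor half-sites (AGGTCA, the latter on the opposite strand), which start at bases 66 and 85, and 16.3% of 32851 RefSeq promoters hold at least 1. The Avp window holds an E-box (CACGTG), the letters bound by clock proteins among others, at base 112, found in 7.15% of promoters. Neither window holds the forkhead motif GTAAACA, present in 3.65% of promoters, or the cAMP response element TGACGTCA, present in 1.79%. Of the genes named as lower in the mutant that had a promoter entry, 0 of 11 held the forkhead motif, as did 0 of 13 of those named as higher. A match is a description of letters and says nothing of binding.

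Crh came next in size among the peptides made by paraventricular and supraoptic neurons. Crh encodes corticotropin-releasing hormone, which drives the stress axis, and measured 4.71 and 3.55 FPKM in the wild-type against 1.77 and 1.60 FPKM in the mutant libraries (log2 difference -0.92, standard error 0.13, adjusted p = 0.679, limma). Both mutant libraries were below both controls. Pdyn, the precursor of dynorphin, which vasopressin neurons also store, was lower in both as well, at 9.08 and 6.99 against 10.3 and 9.74 FPKM (log2 -0.29). Nts, which encodes neurotensin, went the other way, with 22.6 and 27.2 FPKM in the mutant and 20.4 and 17.4 FPKM in the wild-type libraries (log2 0.38). Trh and Sst overlapped between groups, at log2 differences of 0.19 and 0.06. Of the 10 peptide genes on this list, all tested, 7 had a negative difference, 4 lay apart and lower and 1 apart and higher, and their median was -0.10. The differences of Avp, Oxt and Crh were known when the list was made.

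**Figure D2:**
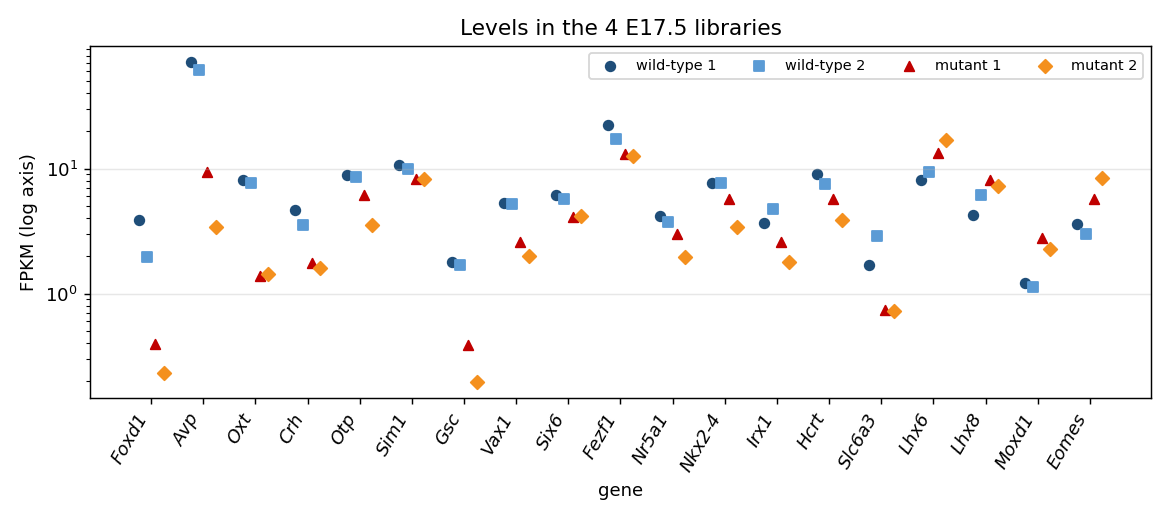
FPKM of single genes in each of the 4 E17.5 libraries (log axis), each point being 1 library. Avp, Oxt and Crh were lower in both mutant libraries, at 3.43 to 9.38, 1.39 to 1.43 and 1.60 to 1.77 FPKM.

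The transcription factors that specify these neurons had smaller differences than Avp, Oxt and Crh. Otp, a homeobox gene without which Avp, Oxt and Crh neurons do not form, measured 8.90 and 8.60 FPKM in the wild-type and 6.21 and 3.52 FPKM in the mutant libraries (log2 -0.77, standard error 0.21). Uncx, a homeobox gene of the same domain, measured 9.81 and 9.84 FPKM against 7.61 and 5.81 FPKM (log2 -0.50). Sim1, which acts beside Otp, measured 10.6 and 9.89 FPKM against 8.23 and 8.34 FPKM (log2 -0.28, standard error 0.06). For all of them the groups lay apart, and none passed the adjusted threshold. Pou3f2, which acts downstream of Sim1, was at 15.8 and 15.5 against 12.7 and 14.9 FPKM (log2 -0.17), Pou3f1 at -0.14, and Arnt2, the partner of Sim1, at -0.09 with levels of 55.3 and 56.9 against 53.7 and 51.4 FPKM. Pou3f3 overlapped between groups (log2 -0.07) and Sim2 was below the filter. All 7 tested members had a negative difference, also with quantile, upper-quartile or small-RNA-free scaling; 6 lay apart and lower, 3 at an unadjusted p under 0.05, and the median was -0.17.

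Several genes that process and store peptides were lower in both mutant libraries, and none passed the adjusted threshold. Pcsk1n, an inhibitor of prohormone convertase 1, measured 89.1 and 87.0 FPKM in the wild-type against 77.1 and 54.5 FPKM in the mutant libraries (log2 -0.44, standard error 0.15). Vgf, a granule protein and peptide precursor, measured 21.8 and 22.2 against 19.5 and 15.1 FPKM (log2 -0.34), and the convertase gene Pcsk2 17.6 and 18.4 against 15.3 and 13.6 FPKM (log2 -0.30). The granule membrane protein gene Ptprn was at -0.28, the convertase gene Pcsk1 at -0.20 and the secretogranin gene Scg2 at -0.10, all with both mutant libraries below both controls. Cpe, the carboxypeptidase that trims peptides, overlapped at 478 and 504 against 483 and 459 FPKM. Of 18 tested members, 15 had a negative difference (13 when small RNA genes were left out of the scaling), 9 lay apart and lower and 0 apart and higher, and 4 were at an unadjusted p under 0.05. The median was -0.07, at -0.04 for mutant library 1 and -0.11 for mutant library 2. Pan-neuronal genes had a median of -0.04 over 21 members, at -0.0029 for mutant library 1 and -0.09 for mutant library 2.

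**Figure D3:**
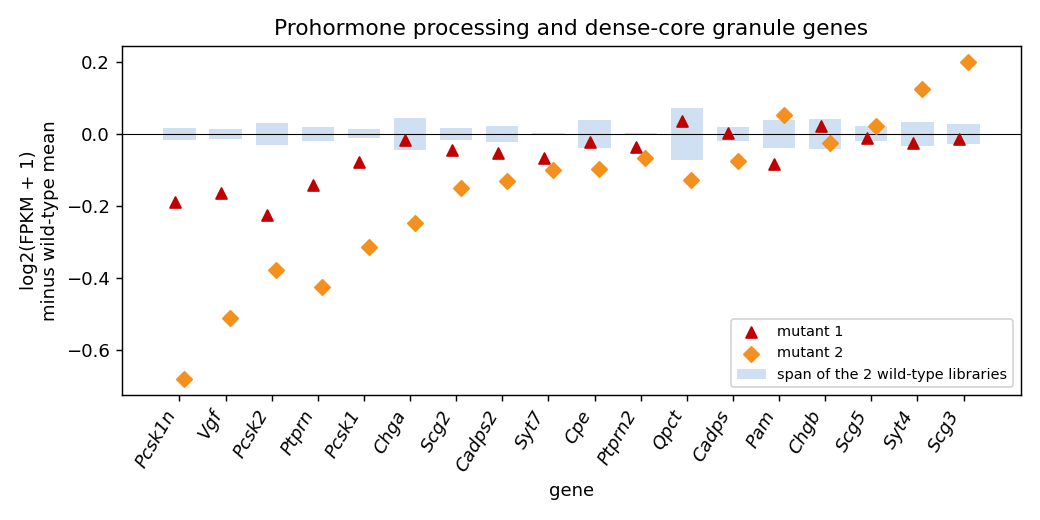
Log2 difference from the wild-type mean of the prohormone processing and dense-core granule genes, with a point for each mutant library and a pale bar for the span of the 2 wild-type libraries. Pcsk1n, Vgf, Pcsk2 and Ptprn were the lowest, and mutant library 2 lay below mutant library 1 for each of the 4.

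Several homeobox genes of the anterior hypothalamus were lower in both mutant libraries, and none passed the adjusted threshold. Gsc, which encodes goosecoid, measured 1.78 and 1.70 FPKM in the wild-type and 0.391 and 0.197 FPKM in the mutant libraries (log2 -1.09, standard error 0.12, adjusted p = 0.585, limma); these levels correspond to about 66.7, 78.5, 16.9 and 6.5 fragments. Vax1, needed for optic stalk and anterior midline development, measured 5.34 and 5.19 against 2.58 and 1.98 FPKM (log2 -0.94, standard error 0.11, adjusted p = 0.585, limma). Six6, required for the suprachiasmatic nucleus, measured 6.14 and 5.73 against 4.08 and 4.16 FPKM (log2 -0.44, standard error 0.07). The replicates of each genotype lay close together for Vax1 and Six6, and the groups did not overlap for any of the 3. Rax, an early hypothalamic and eye-field gene, was at -0.26 and Six3 at -0.12, with Rora at -0.23 and Rorb at -0.17, both orphan nuclear receptors of the clock network. Lhx1, which controls coupling among suprachiasmatic neurons, overlapped between groups (-0.08). Of 15 tested members, 11 had a negative and 4 a positive difference under each scaling tried, 8 lay apart and lower, 2 apart and higher and 5 were lower at an unadjusted p under 0.05; the median was -0.12.

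Among the signalling genes of the suprachiasmatic nucleus, the tested ones had smaller differences than Avp. The calcium-binding protein gene Calb2 was at 83.8 and 76.4 FPKM in the mutant against 93.7 and 93.5 FPKM in the wild-type libraries (log2 -0.22). Calb1, of the same kind, was at 25.5 and 23.4 against 27.2 and 28.3 FPKM in the same order (log2 -0.18). Grp, which encodes gastrin-releasing peptide, was higher in both mutant libraries (log2 0.21). Of 9 tested genes, Avp included, 8 had a negative difference, 6 lay apart and lower and 1 apart and higher, and 3 were lower at an unadjusted p under 0.05 (median -0.14). The other 5 of the 14 listed genes were below the filter and were not tested. Named after their values were seen, Vipr2, the receptor gene for vasoactive intestinal peptide, was at 0.564 and 0.518 FPKM in the wild-type and 0.137 and 0.297 FPKM in the mutant libraries, and Vip, the gene of that peptide, at 0.233 and 0.544 against 0.108 and 0.194 FPKM. Both were lower in both mutant libraries at these low levels. Of the other listed genes below the filter, Rasd1 was also lower in both, and Prok2 and Nms overlapped between groups. Prok2 was at 0.247 and 0.252 FPKM in the wild-type and 0.268 and 0.201 FPKM in the mutant libraries. Nms was at 0.208 and 0.166 against 0.089 and 0.278 FPKM. The 18 tested core clock genes had a median of -0.02, and none was at an unadjusted p under 0.05.

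Further back, several markers of the ventromedial nucleus, which controls energy balance and social behaviour, were lower. Fezf1, a zinc finger gene needed for its neurons, measured 22.3 and 17.4 FPKM in the wild-type and 13.2 and 12.7 FPKM in the mutant libraries (log2 -0.57, standard error 0.11). Nr5a1, which encodes steroidogenic factor 1, the defining factor of the nucleus, measured 4.18 and 3.74 against 2.996 and 1.98 FPKM (log2 -0.52, standard error 0.15). Both lay apart between groups. Tac1, the substance P precursor gene, measured 25.0 and 25.5 against 19.4 and 18.7 FPKM (log2 -0.39, standard error 0.05, adjusted p = 0.67, limma), with replicates close together in each genotype. Sox14 was at -0.41, and the synaptic protein genes Nptx2 and Cbln1 at -0.37 and -0.34. The leptin receptor gene Lepr was higher in both mutant libraries (log2 0.37). Of 21 tested members, 15 had a negative difference, 10 lay apart and lower and 3 apart and higher; 8 were lower and 1 higher at an unadjusted p under 0.05. The median was -0.11, and mutant libraries 1 and 2 had medians of -0.11 and -0.12.

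Among the listed genes of the mammillary and supramammillary region, 3 Iroquois homeobox genes were lower. The region that their RNA came from was not measured in these bulk pools. Irx1 measured 3.70 and 4.75 FPKM in the wild-type and 2.61 and 1.78 FPKM in the mutant libraries (log2 -0.72, standard error 0.16), Irx2 was at -0.47 and Irx3 at -0.27, all with both mutants below both controls. Nkx2-4, a hypothalamic homeobox gene related to Nkx2-1, measured 7.69 and 7.74 against 5.67 and 3.43 FPKM (log2 -0.68, standard error 0.19). Barhl1 was at -0.25 and Foxb1, which marks the mammillary body, at -0.18. Tbr1 was higher and is described with the cortical genes. Of 25 tested members, 18 had a negative difference (17 to 19 under the other scalings), 10 lay apart and lower and 2 apart and higher, with a median of -0.08; Uncx and Sim1 are also on this list.

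Among genes of the arcuate and lateral hypothalamus, single genes differed rather than lists. Hcrt, which encodes the wakefulness peptide orexin, measured 9.12 and 7.57 FPKM in the wild-type and 5.74 and 3.91 FPKM in the mutant libraries (log2 -0.70, standard error 0.17), with the groups apart. Pmch is the melanin-concentrating hormone gene, expressed in neighbouring neurons. It was at 65.1 and 56.2 FPKM in the mutant and 54.0 and 55.8 FPKM in the wild-type libraries (log2 0.14). The 15 lateral and dorsomedial genes tested had a median of -0.03 with 8 negative, and of 0.09 with 5 negative without mutant library 2. The 15 arcuate and tuberal regulators also had a median of -0.03, and of -0.10 without wild-type library 2; among them Prdm12, a zinc finger gene of Pomc neurons, was at -0.34. Pomc and Npy, the opposed feeding peptides of the arcuate nucleus, overlapped between groups. Pomc measured 38.9 and 11.3 FPKM in the wild-type and 18.6 and 41.4 FPKM in the mutant libraries. Npy measured 29.7 and 27.5 against 26.5 and 47.0 FPKM in the same order. Pomc is also made in the pituitary, and its lowest value was in wild-type library 2, the library with the low pituitary sum. Of 39 other neuropeptide precursors, Hcrt, Pmch, Pomc and Npy among them, 21 were tested and 4 lay apart in each direction (median -0.04, and 0.08 without mutant library 2).

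Receptors for these peptides were balanced between the directions. Of 51 neuropeptide receptor genes 33 were tested, 17 with a negative difference (15 to 19 under the other scalings) and a median of -0.0038; 8 lay apart and lower and 6 apart and higher. Avpr1a, the vasopressin receptor of the brain and vessels, measured 2.79 and 3.16 FPKM in the wild-type and 2.45 and 2.33 FPKM in the mutant libraries (log2 -0.23). The thyrotropin-releasing hormone receptor gene Trhr was higher, at 4.29 and 4.54 against 3.77 and 3.72 FPKM (log2 0.19), and the natriuretic peptide clearance receptor gene Npr3 was at 1.92 and 1.85 against 1.27 and 1.03 FPKM (log2 0.42). Npffr1 was at -0.28 and Kiss1r, the kisspeptin receptor gene, at -0.23.

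Genes of the preoptic area and ventral telencephalon were among those higher in the mutant. Lhx6, a LIM homeobox gene of GABAergic neurons, measured 8.17 and 9.38 FPKM in the wild-type and 13.4 and 16.9 FPKM in the mutant libraries (log2 0.72, standard error 0.12, adjusted p = 0.689, limma). Moxd1, a monooxygenase-like gene of the medial preoptic area, measured 1.21 and 1.13 against 2.78 and 2.28 FPKM (log2 0.70, standard error 0.11). For both genes, the mutant libraries were above both controls. Lhx8, a partner of Lhx6 in cholinergic and GABAergic fates, measured 4.22 and 6.16 against 8.05 and 7.20 FPKM (log2 0.50), while Maf overlapped (log2 0.23). The list was not uniform. Of 17 tested genes, 6 had a negative difference (7 with quantile normalization), 2 lay apart and lower and 6 apart and higher, 4 at an unadjusted p under 0.05; the median was 0.13, and 0.0073 without mutant library 2.

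Single genes were higher among related regulators of GABAergic neurons, and none passed the adjusted threshold. Dlx1, a homeobox gene of forebrain inhibitory neurons, measured 27.7 and 27.1 FPKM in the wild-type and 35.5 and 33.2 FPKM in the mutant libraries (log2 0.32, standard error 0.06). Its relative Dlx5 was at 0.26, also with the groups apart. Over 20 tested members the median was 0.04, with 3 apart and lower and 6 apart and higher.

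Cortical excitatory neuron genes separated the 2 mutant libraries from each other. Eomes, the marker of intermediate progenitors, was higher in both, at 5.74 and 8.39 against 3.58 and 3.03 FPKM (log2 0.89, standard error 0.17), and Tbr1, a deep-layer factor, at 5.91 and 9.83 against 5.08 and 4.15 FPKM (log2 0.63, standard error 0.22). The bHLH gene Neurod6, however, measured 8.48 and 11.1 FPKM in the wild-type and 8.59 and 33.7 FPKM in the mutant libraries, with mutant library 1 inside the wild-type range. Neurod2 showed 1.43 and 8.47 against 2.21 and 2.17 FPKM, and Bhlhe22 4.33 and 18.3 against 5.94 and 6.04 FPKM, so that mutant library 1 lay below both controls and mutant library 2 above them. Of 33 listed genes 32 were tested and 1 had a negative difference (2 with quantile normalization). The median was 0.22, but 0.58 in mutant library 2 and -0.05 in mutant library 1; without mutant library 2, 17 of the 32 were negative. In all, 11 lay apart and higher and 0 apart and lower.

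Synaptic organiser genes included another of the larger differences. Nptxr, the neuronal pentraxin receptor that gathers AMPA receptors at synapses, measured 30.9 and 30.8 FPKM in the wild-type and 23.1 and 13.6 FPKM in the mutant libraries (log2 -0.76, standard error 0.22). Both mutants were lower, and they differed from each other more than mutant library 1 differed from the controls. C1ql2, a complement-like synaptic organiser, was at -0.47, the presynaptic adhesion gene Nrxn2 at -0.23 and Nptx1 at -0.20. Of 24 tested members, which also include Nptx2 and Cbln1, 9 lay apart and lower and 2 apart and higher (median -0.05). Of 37 axon guidance genes tested, 17 had a negative and 20 a positive difference, with 5 apart and lower and 11 apart and higher (median 0.02). The Eph receptor gene Epha3 was at 11.5 and 15.8 FPKM in the mutant against 9.99 and 9.96 FPKM in the wild-type libraries (log2 0.40). The ephrin gene Efnb2 was at 0.37.

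The dopamine transporter gene Slc6a3 was lower, whereas the genes of dopamine synthesis overlapped. Slc6a3 measured 1.71 and 2.91 FPKM in the wild-type and 0.739 and 0.732 FPKM in the mutant libraries (log2 -0.91, standard error 0.18, adjusted p = 0.689, limma). Th, the rate-limiting enzyme of dopamine synthesis, measured 6.87 and 7.27 against 7.22 and 5.32 FPKM (log2 -0.16) and the decarboxylase gene Ddc was at -0.17, both with overlapping groups. The vesicle transporter gene Slc18a2 (-0.17) and the histamine enzyme gene Hdc (-0.19) lay apart and lower. Of 22 tested monoamine and acetylcholine genes, 17 had a negative difference (16 with small RNA genes left out), 11 without mutant library 2, and the median was -0.08, and 0.0079 without that library. The thalamic and prethalamic list had a median of -0.06 over 22 genes. Nkx2-2, a homeobox gene bordering both regions, was lower (log2 -0.36). It was at 4.65 and 3.83 FPKM in the mutant against 6.19 and 5.27 FPKM in the wild-type libraries. Zic4 was at -0.27.

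Forkhead genes were balanced between the directions, with 13 of 27 tested negative, Foxd1 included (15 with quantile normalization), and a median of 0.0039. Foxb2, a relative of Foxb1, was at 0.894 and 0.931 FPKM in the mutant against 1.56 and 1.47 FPKM in the wild-type libraries (log2 -0.40), and Foxj1, the ciliated-cell factor, at -0.24. Foxc1, of the meninges, overlapped (0.28).

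Marker lists of glial, dividing and vascular cells had medians between -0.10 and 0.17. All 25 proliferation genes had a positive difference under each scaling tried, 13 with the groups apart, and the median was 0.17, at 0.05 in mutant library 1 and 0.30 in mutant library 2. Mki67, a marker of cycling cells, measured 5.87 and 5.68 FPKM in the wild-type and 6.29 and 9.12 FPKM in the mutant libraries (log2 0.34). Without mutant library 2, 6 of the 25 were negative. Of 16 oligodendrocyte lineage genes, 6 lay apart and lower and 1 apart and higher (median -0.10, and -0.01 in mutant library 1). Olig1, a lineage factor, was at 26.7 and 21.3 FPKM in the mutant against 29.4 and 29.7 FPKM in the wild-type libraries (log2 -0.30). The myelin gene Mag was at -0.31. Astrocyte and tanycyte genes had a median of 0.04 over 21 members, and radial glia genes 0.02 over 23. Endothelial genes had a median of 0.11 over 21 members, and 0.025 without wild-type library 2; 7 lay apart and higher and 0 were at an unadjusted p under 0.05. Microglial genes had a median of 0.04 over 21 members, and -0.027 without wild-type library 2, with 2 apart in each direction.

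Several meningeal genes were higher in both mutant libraries. Dcn, which encodes the matrix proteoglycan decorin, measured 22.6 and 13.4 FPKM in the wild-type and 30.1 and 29.3 FPKM in the mutant libraries (log2 0.74, standard error 0.22). Tbx18 (0.60), the sulphate transporter gene Slc13a4 (0.57), Lum (0.55) and Ogn (0.52) lay apart and higher as well, each with its lowest value in wild-type library 2. Of the 30 meningeal genes, Foxd1 among them, 2 lay apart and lower and 9 apart and higher, and the median was 0.27, at 0.42 in mutant library 1 and 0.03 in mutant library 2; without wild-type library 2 it was -0.01. Skeletal muscle genes, 13 of 14 negative (11 to 14 under the other scalings) with a median of -0.24, had a median of -0.0036 without the same library. The pituitary hormone genes Tshb, Cga and Gh overlapped between groups, as did Ttr, the choroid plexus transthyretin gene, at 49.99 and 133 against 4.76 and 333 FPKM.

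**Figure D4:**
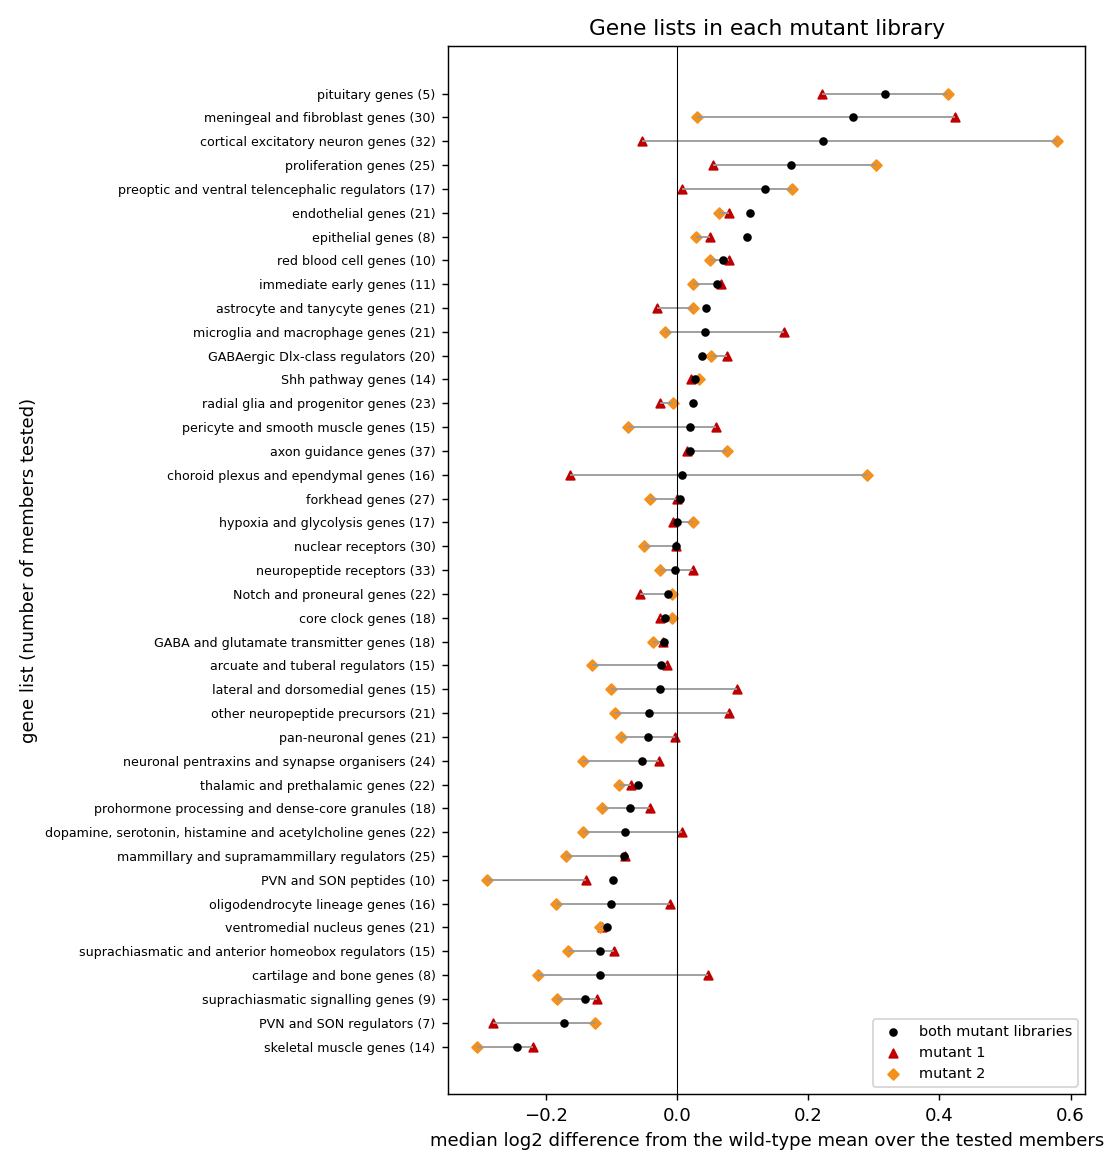
Median log2 difference of each gene list for mutant library 1 (triangle), mutant library 2 (diamond) and both (black point) against the wild-type mean, with the number of members tested. The ventromedial list had like medians in both (-0.11 and -0.12), while the cortical list was at -0.05 in one and 0.58 in the other.

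The remaining genes with large differences belong to none of these groups. Snhg9, a noncoding host gene of small nucleolar RNAs, measured 12.4 and 11.3 FPKM in the wild-type and 4.02 and 5.72 FPKM in the mutant libraries (log2 -1.15, standard error 0.14, adjusted p = 0.668, limma). Terc, the telomerase RNA gene, measured 21.3 and 21.9 against 15.0 and 8.72 FPKM (log2 -0.86). Both lay apart and lower; the libraries also differed in their share of small RNA genes, as given above. Gpr151, a receptor gene best known from the habenula, measured 1.67 and 1.34 against 0.621 and 0.405 FPKM (log2 -0.73), and Tesc, the calcium-binding protein gene tescalcin, 3.10 and 3.13 against 1.65 and 1.67 FPKM (log2 -0.63, standard error 0.08). Their groups lay far apart at low levels. The pseudogene Hist3h2bb-ps (-0.74) shares sequence with related genes and is uncertain, and so is Dynlt1b (0.71), which has near-identical copies.

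Among the further genes that were higher, several are made by vessels, fibroblasts and blood cells. They were Acta2 (0.60), Apod (0.52), Colec12 (0.51), Arhgdib (0.50), Tfpi (0.43) and Angpt2 (0.43), with the zinc finger gene Zfp708 at 0.44. Arhgdib, a GTPase regulator of blood cells, measured 5.25 FPKM in each mutant library against 3.48 and 3.35 FPKM, summed over its transcript rows. Some of those rows overlapped between groups, as given below. Acta2, the smooth muscle actin gene, measured 5.57 and 3.03 against 2.52 and 2.26 FPKM. Apod, Colec12, Tfpi and Angpt2 had their lowest values in wild-type library 2.

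**Figure D5:**
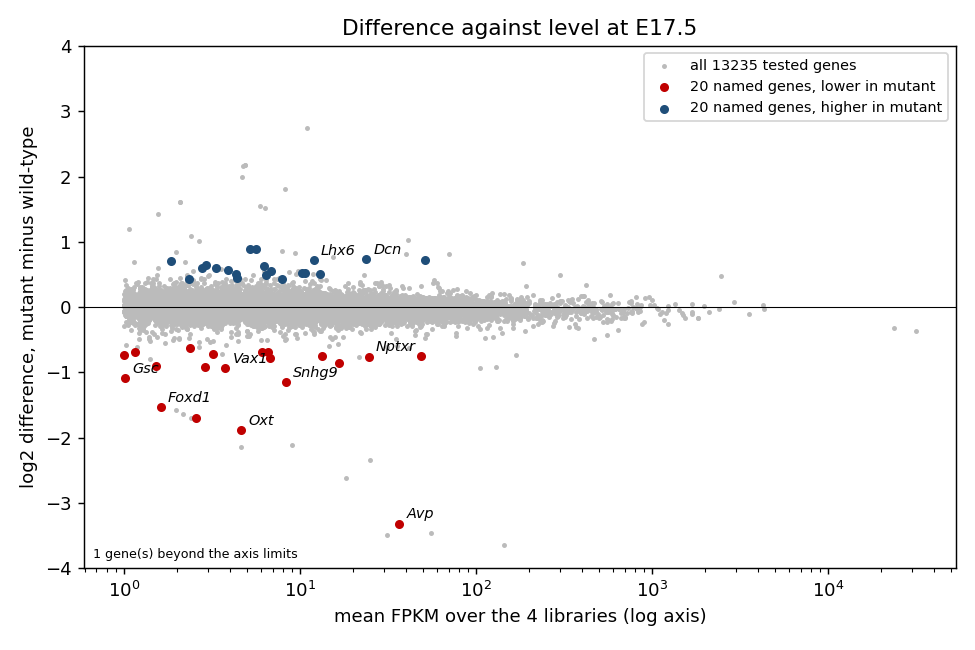
Log2 difference of each of the 13235 genes (y axis) against mean FPKM over the 4 libraries (log x axis), with named genes labelled. Avp and Oxt lie lowest among the labelled genes, and 1 gene, a small nucleolar RNA detected in a single library, lies beyond the axis limit of 4.

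Eomes and Lhx6 have several transcript rows, most of which were higher in both mutant libraries. Both rows of Eomes were higher, at 2.95 and 2.63 against 4.48 and 7.12 FPKM and at 0.635 and 0.397 against 1.26 and 1.27 FPKM. Lhx6 has 4 rows, 3 of them apart and higher, with the most abundant at 4.33 and 5.06 against 6.30 and 10.2 FPKM. Over 8306 transcript rows of genes with several rows and at least 5 FPKM, 33.8% had a share of their gene that lay apart between groups, in either direction, which is the background for a shift between the rows of 1 gene. A transcript row of R3hcc1 that the tables list apart from its gene was at 3.96 and 4.68 against 1.70 and 0.00052 FPKM, and one of Sumo3 at 1.82 and 1.51 against 0.624 and 0.664 FPKM.

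The earlier stages have 1 library per genotype and were tabulated separately, so their values are set beside those of E17.5 with no test. The growth protocol names dissection at E12.5 and E17.5 only, and the E12.0 stage is given as the libraries are labelled. Oxt was at 0 FPKM in all 4 early libraries and Avp and Crh at no more than 0.09 FPKM. Otp was at 71.2 FPKM in the wild-type and 34.8 FPKM in the mutant library at E12.0, and at 39.2 and 46.8 FPKM at E12.5. Sim1 was at 16.7 and 15.9 FPKM at E12.0 and 18.2 and 23.0 FPKM at E12.5. Six6 was at 3.49 and 4.70 FPKM at E12.0 and 8.93 and 9.97 FPKM at E12.5, higher in the mutant at both stages and lower in both mutant libraries at E17.5. Fezf1 was at 37.0 and 38.5 FPKM at E12.0 and 37.4 and 34.5 FPKM at E12.5, close between genotypes before its E17.5 difference.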

How the data were processed

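Expression was measured by paired-end sequencing (100 cycles, Illumina HiSeq) of pooled hypothalamic RNA. The authors deposited FPKM values per RefSeq transcript, in 1 table per library; the submitters' processing notes name TopHat, Cufflinks and the mm9 build. Versions, filters and strandedness are not given in the sources used here. FPKM are not counts, so no count model was fitted. Each table holds 32952 rows, which were summed per symbol (24002 symbols); 51 rows are listed under an accession.

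The 13235 symbols with a mean of at least 1 FPKM were tested as log2(FPKM + 1) with limma 3.58.1 (variance trend, 2 residual degrees of freedom) in R 4.3.3, two-sided, with Benjamini-Hochberg adjustment over all of them and a threshold of 0.05. The script was tested on simulated data. Tables were made with Python 3.11.15, numpy 2.4.6, pandas 2.3.3 and matplotlib 3.10.9. Depth was estimated from the steps of low values in 7563 rows of transcripts over 2500 nt (GENCODE lengths), with 200 nt taken off the length; 79.8% to 81.9% of 364 to 414 low values per library came out whole within 0.1, so fragment numbers are approximate.

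Named genes were Foxd1, Oxt, Avp, Crh, Otp and Sim1, the 20 genes in each direction with the largest log2 difference at an unadjusted p under 0.05 and groups that do not overlap, and up to 5 members of each list by size of difference; predicted, small RNA and sex-linked genes were skipped. A few further list members are named for their known role, and some genes that the rule selects are not reported here. The 43 lists hold 857 genes, 652 of them tested and 5 not found. Members, lists and tests were chosen with earlier results of these data known, and lists are described by counts and medians, with no set test. The alternatives were 16 other settings: pseudocount, filter on low values, scaling, variance prior, joining of rows, a replicate block and each library left out. Joining the 51 accession rows to their genes was added after the data were seen. Over all tested genes, the correlation of same-numbered deviations from the group means was 0.028. Some lists did follow the replicate number. Relative to the mean of the 4 libraries, meningeal sums were 1.15 and 0.804 in wild-type libraries 1 and 2. In mutant libraries 1 and 2 they were 1.24 and 0.799. Red blood cell sums were 1.11 and 0.869, and 1.10 and 0.926. Pituitary, skeletal muscle and cortical sums did not follow it. A shared batch of same-numbered libraries was not tested. Promoters are those of RefSeq (GRCm38.p6), matched by symbol.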

Additional observations from a re-analysis of the deposited data

Results flagged for a closer look

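The genes with the largest E17.5 differences in each direction were searched for those with at least 1 FPKM in an early library whose E17.5 mutant libraries both lay on one side of both controls and whose single mutant library of each early stage lay on the other side; Six6, named from a list and not searched, showed the same pattern. The difference between stages was not tested, since the early stages have 1 library per genotype and separate tables. Vax1 had a log2 difference of -0.94 at E17.5 against 0.12 at E12.0 and 0.15 at E12.5; its early levels were 11.5 and 12.6 FPKM in the wild-type and mutant libraries at E12.0 and 17.3 and 19.3 FPKM at E12.5. Tbr1 was at 0.63 at E17.5 against -1.04 at E12.0 and -0.48 at E12.5. Its E17.5 difference was 0.30 in mutant library 1 and 0.95 in mutant library 2, the library with the high cortical sum. The early levels of Tbr1 were 20.1 and 9.30 FPKM at E12.0 and 6.24 and 4.203 FPKM at E12.5. Dynlt1b, which has near-identical copies, was at 0.71 against -0.0025 and -0.34.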

How the results depend on the processing

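Of 16 alternatives, 9 had 1 gene past the adjusted threshold, which was Oxt except without wild-type library 2, where it was a small RNA gene. The number was 0 with no filter on low values, with a filter at a mean of 5 FPKM and with transcript rows not summed, and 1 to 23 with a library left out (4 without wild-type library 1, 23 without mutant library 1 and 10 without mutant library 2, of which 4, 8 and 8 were small RNA genes). Oxt was at -1.89 without that filter (adjusted p = 0.0901, limma) and with rows not summed (adjusted p = 0.126, limma), was not tested under the stricter filter, and spanned -1.92 to -1.86 with a library left out. Genes at an unadjusted p under 0.05 numbered 117 to 2021 lower and 77 to 1673 higher with a library left out, 475 higher with no filter, and 399 lower and 400 higher with small RNA genes left out. Genes apart by at least 1.5-fold numbered 50 lower and 40 higher with a pseudocount of 0.1, 11 and 7 with 5, 13 and 10 with the stricter filter, 104 and 123 with rows not summed, and 32 to 91 lower and 26 to 80 higher with a library left out. The causes were not tested.

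With a replicate block, 16 genes passed and 491 were higher at an unadjusted p under 0.05 (676 lower); the 16 include Oxt, Avp (-3.32, adjusted p = 3.01e-05, limma), Crh, Foxd1, Gsc, Vax1, Fezf1, Hcrt and Lhx6. No label ties same-numbered libraries together. The meningeal and red blood cell sums were, however, higher in library 1 than in library 2 of both genotypes. Whether same-numbered libraries share a batch was not tested.

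Directions of named genes reversed only with a library left out. Without mutant library 2 they did so for genes whose values with a library left out spanned -0.391 to 1.47 (Bhlhe22), -0.393 to 1.57 (Neurod2), -0.162 to 1.69 (Neurod6), -0.325 to 0.448 (Sst), -0.105 to 0.700 (Npy), -0.381 to 0.0491 (Ddc) and -0.354 to 0.0267 (Th). Without wild-type library 2 they did so for Cga (-0.538 to 1.64) and Gh (-0.620 to 1.25), and without either of these libraries for Pomc (-0.471 to 1.22; -0.18 without mutant library 2). Without mutant library 1 they did so for Ttr (-3.84 to 2.01), Trh (-0.0804 to 0.468) and Pou3f3 (-0.188 to 0.0450). Among medians near 0, that of the neuropeptide receptors (-0.0038) was 0.00055 with upper-quartile scaling and 0.0126 with small RNA genes left out, and that of the forkhead genes (0.0039) was -0.0061 with quantile normalization. Of 515 list medians, 73 moved by more than the spread between replicates.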
